A study of Mus musculus with 5 samples.

Results

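Cells that carried transcripts of Ace, Ear2, Cd300e and Adgre4, genes used as markers of non-classical monocytes, were examined in the mouse spleen. A cell was a member when these 4 genes together had at least 3 unique molecular identifiers (UMIs, each standing for 1 captured RNA molecule) and the markers of macrophages, plasmacytoid dendritic cells, cDC1, B cells and T cells were low or absent. Of 16271 cells that passed the quality limits, 321 were members (1.97%, 95% interval 1.77 to 2.20%). The members were chosen by these marker counts, so that the levels of the 4 genes are given as a description only. Of the 321 members, 175 (54.5%) fell into a single cluster led by Ace and the other 146 did not, so that both sets are given side by side throughout. The clustering did not leave the 4 genes out, so that this split describes the members and does not test the name.

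Non-classical monocytes are blood monocytes that crawl along the inner wall of vessels and take up debris and dying cells there. They arise largely from classical monocytes, which carry Ly6C and the chemokine receptor CCR2, through a switch that depends on the transcription factors NR4A1 and C/EBPbeta, and the spleen holds a reserve of both kinds. They are low in MHC class II, which sets them apart from the conventional dendritic cells of the spleen.

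The recipients were C57/BL6 mice, and the spleens were taken 48 h after an intravenous infusion. Each of the 5 groups had 1 library: saline, live allogeneic splenic cells (Balbc donors), live isogeneic splenic cells (B6 donors), apoptotic allogeneic splenic cells (Balbc) and apoptotic isogeneic splenic cells (B6). CD45+ cells and dendritic cells had been enriched on magnets in separate steps and then combined 1 to 1, so that shares of cells describe this mixture and not the whole spleen. How many mice stand behind a library is unknown from the sources used here, and infused cells were not separated from recipient cells. With 1 library per group there is no replicate check: no test was run, the intervals cover counting error only, and "higher" or "lower" compares these libraries.

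The libraries held between 12742889 and 32641733 UMIs in all, and the median UMI count of a quality-filtered cell was between 2298 in the apoptotic isogeneic library and 4984.5 in the live allogeneic one. Members had medians between 2786 (apoptotic isogeneic) and 5770 (live isogeneic) UMIs, and 3 members carried a barcode that another library held too. In the live isogeneic library the transcripts Gm42418 and Lars2, which are known to pick up reads of ribosomal RNA, stood apart. Among the Ace-led members Gm42418 was at 84360.7 CPM (UMIs summed over the cells of a library and scaled to one total) there, and between 19549.3 and 31115.7 CPM in the other libraries.

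Members made up 2.62% (95% interval 2.07 to 3.27%; 76 of 2902 cells) of the saline library and 2.45% (1.64 to 3.49%; 29 of 1186) of the live allogeneic one. They made up 2.80% (2.29 to 3.38%; 103 of 3685) of the live isogeneic library, 2.98% (2.29 to 3.79%; 63 of 2118) of the apoptotic allogeneic one and 0.784% (0.582 to 1.03%; 50 of 6380) of the apoptotic isogeneic one. The apoptotic isogeneic share lay below the other 4, whose intervals overlapped. That library also held the most B and T cells (3520 and 1263 cells in their gates). Among cells outside the B and T cell gates the shares were 5.05, 5.73, 6.16, 5.52 and 3.13% in the same order of libraries, so that the distance was smaller on this scale. For the Ace-led members alone these shares were 2.793, 3.162, 2.932, 3.155 and 2.004%. There the apoptotic isogeneic interval (1.375 to 2.817%) overlapped those of all the other libraries. With each cell thinned to 1000 UMIs and at least 2 marker UMIs required, the shares of all cells were 1.86, 1.10, 1.30, 2.31 and 0.439%, and the apoptotic isogeneic library was again the lowest.

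The members were a mixture. Clustering of all 16271 cells, added after the data had been seen, put 175 members into a cluster of 198 cells whose leading genes were Ace, Apoc2, Ear2, Cd300ld and Cebpb. Another 63 fell into a cluster led by Cd209a, a lectin of monocyte-related dendritic cells, Wfdc17 and Ms4a6c. A further 43 fell into one led by Ffar2, and 42 of these held Ear2 but only 2 held Ace. The remaining members lay in clusters led by Chil3, Fn1 and Lyz2 (19 cells), by the division genes Nusap1, Pclaf and Hist1h2ae (12 cells), by Fscn1 (6 cells), by the red cell genes Car1 and Car2 (2 cells) and by Hmox1 and C1qa (1 cell). The Ace-led cluster held 42 of 76 members of the saline library, 16 of 29 of the live allogeneic one, 49 of 103 of the live isogeneic one, 36 of 63 of the apoptotic allogeneic one and 32 of 50 of the apoptotic isogeneic one. Its part of the members thus ran from 47.6% (live isogeneic) to 64.0% (apoptotic isogeneic library).

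**Figure D1:**
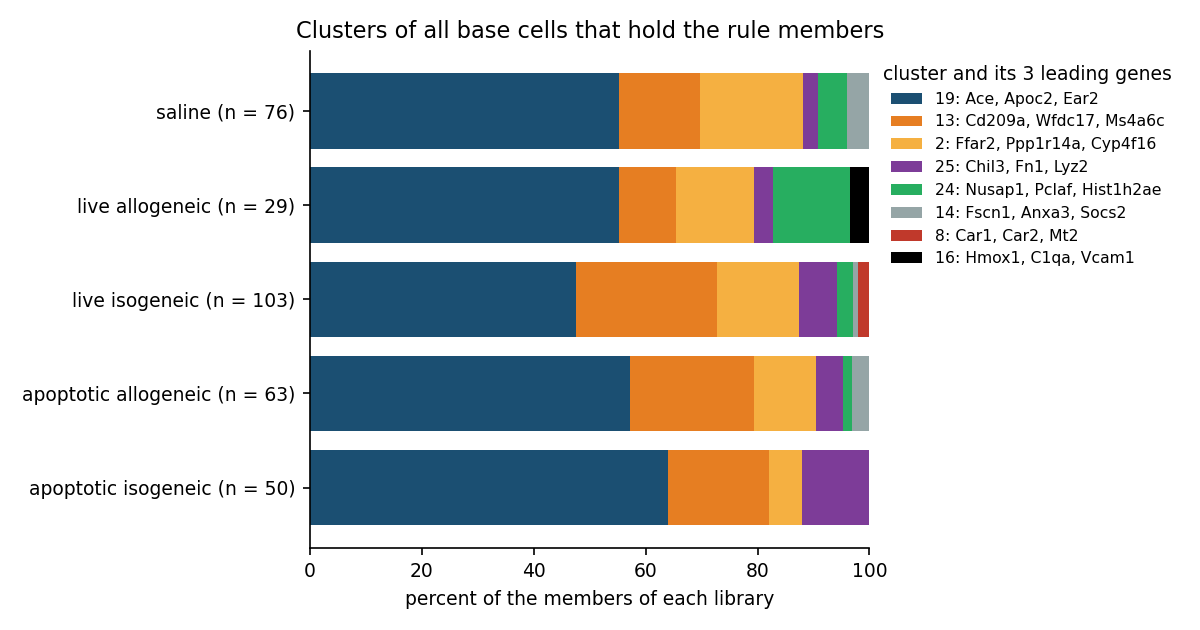
Share of the members of each library (x axis, percent) that fell into each of the 8 clusters holding members, with the number of members beside the library and each cluster named by its 3 leading genes. The dark blue Ace-led cluster holds between 47.6% and 64.0% of the members in every library, and the green cluster of division genes is widest in the live allogeneic library (4 of 29 cells).

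The edge of the rule ran through these other cells. Cells with 2 marker UMIs, just outside, were in the Ace-led cluster in 5.41% of cases (8 of 148), and cells with 3, just inside, in 6.06% (4 of 66). The share was 26.5% at 4 UMIs, 44.7% at 5, 71.9% at 6 to 9 and 86.2% at 10 or more. By the number of marker genes held, 2 of 69 members with 1 of the genes, 26 of 79 with 2, 70 of 96 with 3 and 77 of 77 with all 4 were in that cluster. The clustering did not leave these genes out, and all 4 are among the leading genes of the cluster. The rise with marker UMIs and genes thus describes the rule and is no separate test of it. Members outside it were also deeper, with a median of 7254 UMIs against 3066, so that a few marker UMIs weighed less in them.

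**Figure D2:**
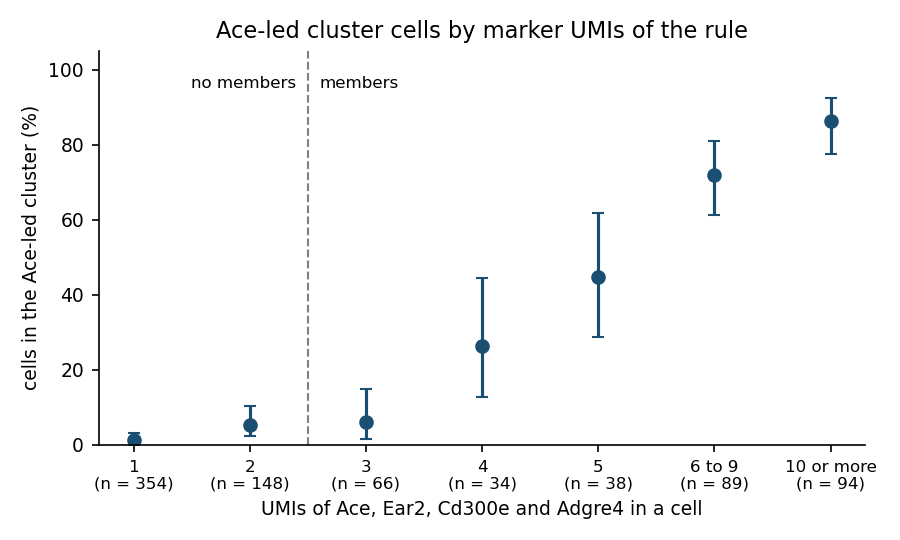
Percent of cells in the Ace-led cluster (y axis) by the summed UMIs of Ace, Ear2, Cd300e and Adgre4 in a cell (x axis), over all libraries, with exact binomial 95% intervals. Cells just outside and just inside the limit of 3 UMIs had like shares (5.41% and 6.06%), and the share reached 86.2% at 10 or more UMIs. The clustering did not leave these genes out, so that the rise is a description.

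Marker genes that the rule did not use set the Ace-led members apart from the rest. The clustering did not leave these genes out, so that their levels describe and do not test. Itgal, the alpha chain of the integrin LFA-1, was at 1438 CPM in Ace-led members, 136 in other members, 234 in the classical monocyte gate, 27 in the C1q-high macrophage gate and 59 in the cDC2 gate. Spn, which encodes CD43, a surface protein high on non-classical monocytes, was at 838, 61, 101, 14 and 27 CPM in the same order. Fabp4, a fatty acid carrier, was at 444 CPM in Ace-led members and at most 17 CPM in the other classes. The classical monocyte genes Ly6c2 and Ccr2 went the other way. Ly6c2 was at 32 CPM in Ace-led members, 226 in other members and 2102 in the classical monocyte gate, and Ccr2 was at 53, 122 and 1135 CPM. The whole list of 12 classical markers did not do so in every library. From saline to apoptotic isogeneic it summed to 1743.2, 1841.2, 1681.2, 1837.6 and 2047.2 CPM in Ace-led members. In all members the sums were 1524.1, 2261.7, 2036.3, 1811.2 and 3537 CPM. All 25 non-classical markers outside the rule were at least 2-fold above the remaining cells in the Ace-led cluster, and so were 4 of 12 classical ones. The remaining cells include all other cell types. By the same measure 15 of the 25 were high in the Chil3-led cluster and 10 in the Hmox1-led one. In the Ffar2-led and Cd209a-led clusters 8 and 7 were.

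Many of the other members, but not all, carried dendritic cell genes. At least 1 UMI of Flt3, the receptor of the dendritic cell growth factor, or Cd209a was found in 85 of 146 of them and in 1 of 175 Ace-led members. At least 2 UMIs of Ly6c2 and Ccr2 together were found in 36 of 146 and in 12 of 175. These UMI minimums were not scaled to depth, and the other members were deeper (median 7254 UMIs against 3066). More than 20 UMIs of H2-Aa, H2-Ab1 and H2-Eb1 per 10000 were found in 123 of 146 and in 19 of 175.

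**Figure D3:**
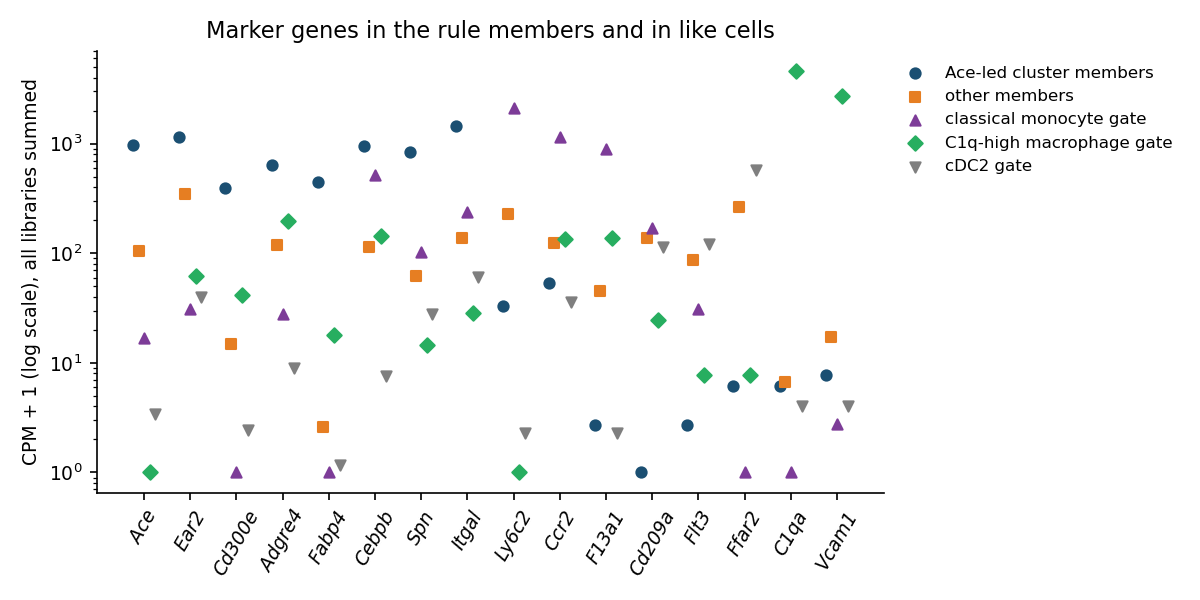
Level of 16 marker genes (y axis, CPM + 1 on a log scale, all 5 libraries summed) in Ace-led cluster members, other members and the gates of 3 like cell types. Non-classical markers such as Fabp4, Spn and Itgal stand highest in the Ace-led members (444, 838 and 1438 CPM), while Flt3 and Ffar2 stand higher in the other members and in the cDC2 gate.

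The 20 genes with the largest ratio of Ace-led members to the classical monocyte, macrophage and cDC2 gates were listed. They were chosen by that ratio, so that their lying above these gates in every library is a description and no test. In the live allogeneic library the classical monocyte gate held 1 cell and the macrophage gate 7. The 20 genes included Ace itself, between 786.3 and 1110.9 CPM over the libraries, against at most 34.1 CPM in any gate and library. Ace encodes the angiotensin-converting enzyme and lies at chr11:105967945-105989964 (mm10, + strand). Among the genes that the rule had not used were Cyth3, an exchange factor of small GTPases (257.6 to 454.1 CPM), the phosphatase gene Dusp16 (291.5 to 533.3 CPM), Eno3, an enolase of glycolysis (565.2 to 982.0 CPM), and S1pr5, a sphingosine phosphate receptor for exit from bone marrow (87.6 to 230.5 CPM). The list also held Smpdl3b, G0s2, Ikzf3, Spata13, Tgfbr3, Tgm3 and Bcl2.

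Genes of receptors and factors of this cell type were compared across the 5 libraries. Cx3cr1, the fractalkine receptor, was at 835.8 CPM in saline, 583.0 in live allogeneic, 637.3 in live isogeneic, 908.3 in apoptotic allogeneic and 908.4 in apoptotic isogeneic Ace-led members. Csf1r, the receptor of the growth factor M-CSF, was at 979, 921, 978, 964 and 719 CPM in that order, and Pou2f2, a transcription factor of these cells, at 1767, 1350, 1604, 1635 and 1668 CPM. The live allogeneic library was the lowest for Cx3cr1 and Pou2f2 and the apoptotic isogeneic one for Csf1r. Of the patrolling, adhesion and migration genes with at least 30 UMIs in a pair of libraries, between 15 and 18 could be compared, and at most 5 were past 1.5-fold in any pair, where between 20.1% and 29.4% of all genes were. Their median log2 ratio lay between -0.07 and 0.07 in Ace-led members over the 6 pairs.

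The first comparison set live allogeneic against live isogeneic cells and asked how foreign live cells differ from syngeneic ones. Genes of the type I interferon response were higher in members after live allogeneic cells. Of the 36 list genes with at least 30 UMIs in the pair, 28 were at least 1.5-fold higher and 1 was lower, with a median log2 ratio of 0.83 against 0.03 over all genes tested. Of all 4490 genes tested, 29.8% were past 1.5-fold either way, 14.9% higher and 14.9% lower. The summed level of the list was 1.96-fold higher (1.87 to 2.05). In the 175 Ace-led members only 9 list genes had the UMIs needed, of which 7 were higher and 0 lower (median 0.76), where 12.5% of all 1320 genes were higher and 16.9% lower. Their summed list level was 1.90-fold higher (1.76 to 2.06). The members outside that cluster had a median of 0.85 over 33 genes and the cDC2 gate one of 0.69 over 42, so that like medians were found outside the Ace-led cells. With at least 5 marker UMIs required of a member, the median was 0.51, under 1.5-fold.

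By library, the list summed to 9695.2 CPM in saline, 15772.7 in live allogeneic, 8285.0 in live isogeneic, 11444.5 in apoptotic allogeneic and 11903.5 in apoptotic isogeneic Ace-led members. The live allogeneic library was the highest and the live isogeneic one the lowest. In the cDC2 gate the sums were 4814.8, 7959.9, 4386.4, 4126.9 and 4486.1 CPM, below those of the Ace-led members in each library. After each Ace-led cell was thinned to 1000 UMIs, it held a median of 10.5, 14, 7, 11 and 10 list UMIs in that order, so that the live allogeneic library was also the highest for the typical cell.

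**Figure D4:**
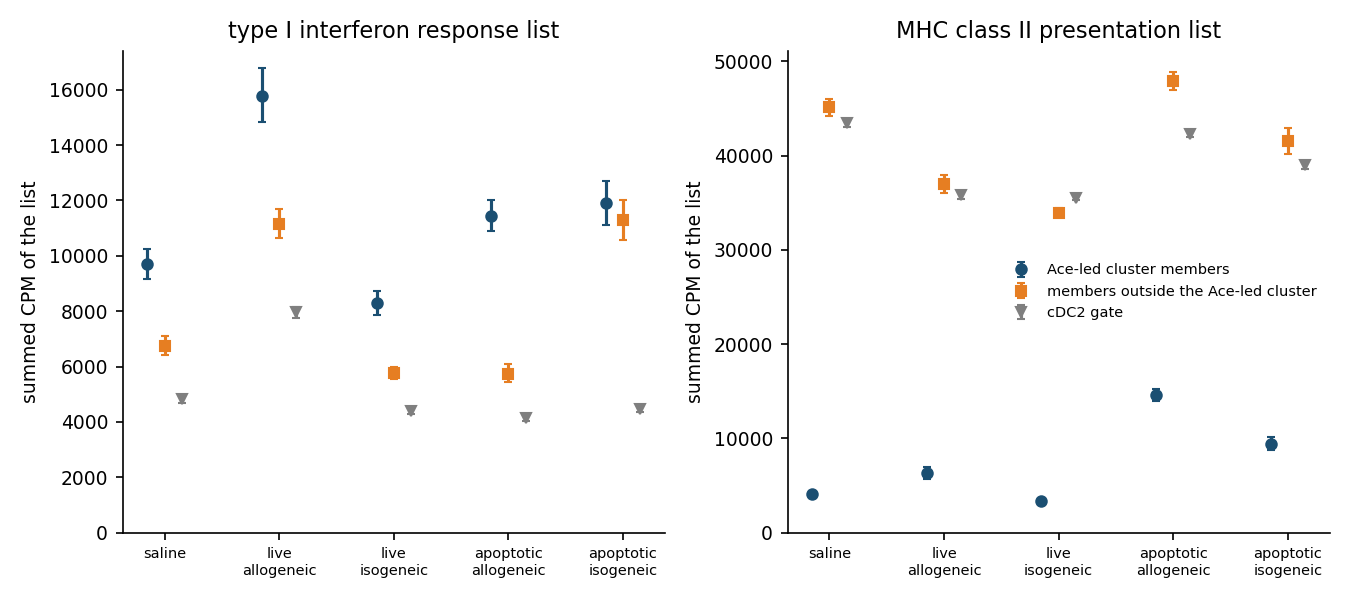
Summed CPM of the type I interferon response list (left) and the MHC class II presentation list (right) in each library for Ace-led cluster members, members outside that cluster and the cDC2 gate, with 95% Poisson intervals for counting error. The live allogeneic library is the highest for the interferon list in Ace-led members (15772.7 CPM), and their MHC class II level is highest after apoptotic allogeneic cells (14574.7 CPM).

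Several genes were followed by library in the Ace-led members. Ly6i, a surface protein gene of the Ly6 family, was at 246.8, 644.4, 208.8, 307.4 and 203.4 CPM over the libraries (saline first, then both live and both apoptotic ones, allogeneic before isogeneic). Only the live allogeneic library was high, 3.09-fold above the live isogeneic one (1.94 to 4.92). Fcgr4, the activating Fc receptor for IgG2 antibodies typical of these monocytes (chr1:171018920-171029761, + strand), was at 406.0, 843.9, 230.7, 468.1 and 528.7 CPM. It was 3.66-fold higher after live allogeneic than after live isogeneic cells (2.40 to 5.60), with the live isogeneic library the lowest of the 5. Ifi27l2a, an interferon-induced gene, was at 676.6, 1657.1, 807.6, 957.2 and 1491.3 CPM. Here the apoptotic isogeneic library was high as well, and the live allogeneic one was 2.05-fold above the live isogeneic one (1.59 to 2.65). Droplets with free RNA held Ifi27l2a at 381.4 CPM in saline, 1036.7 in live allogeneic, 376.0 in live isogeneic and 583.1 in apoptotic isogeneic. None could be read for the apoptotic allogeneic library. In the B cell gate, 35.27, 65.91, 36.76, 35.75 and 36.68% of cells thinned to a common depth held Ifi27l2a, saline first. The live allogeneic rise was thus not limited to Ace-led members, and the part of free RNA in it was not tested.

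Most of the list was sparse in these cells. Isg15, a ubiquitin-like protein, had 1, 2, 5, 6 and 2 UMIs in the Ace-led members of the 5 libraries, and Irf7 had 3, 5, 5, 10 and 3. Neither reached 30 UMIs in any pair. Cxcl9, a chemokine induced by interferon-gamma, had 0 UMIs in the Ace-led members of every library, and of the interferon-gamma list only Irf8 reached 30 UMIs in the pair.

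**Figure D5:**
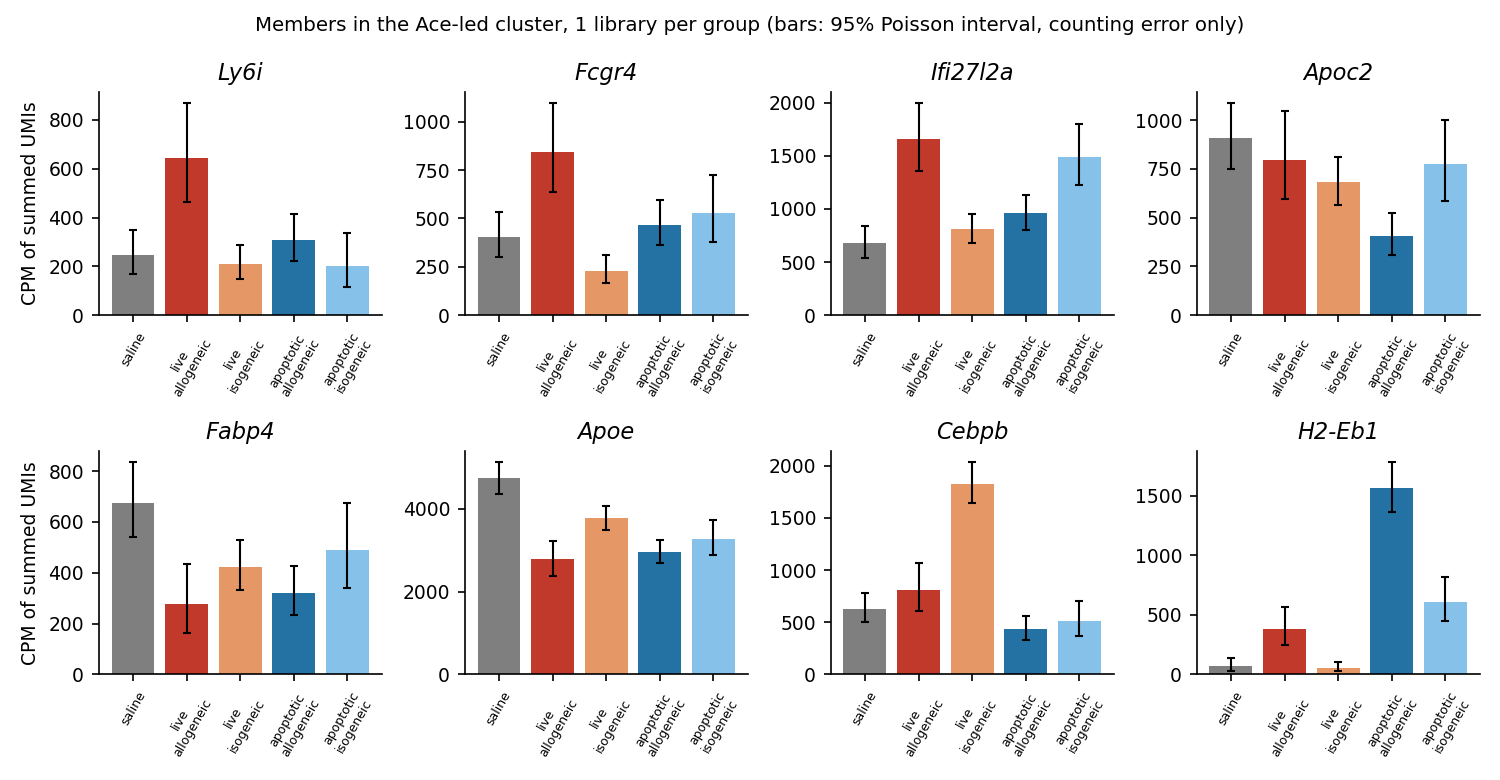
CPM of 8 genes (y axes from 0) in the Ace-led members of each library, as bars with 95% Poisson intervals for counting error. Ly6i and Fcgr4 are highest in the live allogeneic library (644.4 and 843.9 CPM), Cebpb in the live isogeneic one (1829.5 CPM) and H2-Eb1 in the apoptotic allogeneic one (1565.1 CPM).

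Promoters of the interferon genes are shown because genes of this response are known to share the interferon-stimulated response element. Its core, GAAA followed by any 2 bases and GAAA, was searched on both strands in the 250 bases before each start in RefSeq (GRCm38.p6). It was found for 18 of the 37 list genes with a promoter entry (48.6%) and in 2.98% of all 32851 promoters. The promoter of Fcgr4, which had the highest ratio of the eligible genes in Ace-led members for live allogeneic against live isogeneic cells, is not on that list but held the core too. In the stretches below, read 5′ to 3′ on the gene's strand, capitals mark the core, whose matches overlap in Isg15. The stretches lie at chr1:171018823-171018902 (+) for Fcgr4, chr1:173942493-173942572 (-) for Ifi203, chr1:173741810-173741889 (-) for Ifi207 and chr4:156200847-156200926 (-) for Isg15.
Fcgr4: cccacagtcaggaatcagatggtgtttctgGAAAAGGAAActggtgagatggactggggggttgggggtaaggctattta
Ifi203: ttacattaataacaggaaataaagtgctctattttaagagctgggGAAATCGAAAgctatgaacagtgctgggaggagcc
Ifi207: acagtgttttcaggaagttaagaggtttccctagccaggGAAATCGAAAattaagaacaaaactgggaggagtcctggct
Isg15: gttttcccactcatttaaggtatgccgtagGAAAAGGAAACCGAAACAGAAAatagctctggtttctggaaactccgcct

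MHC class I presentation genes were compared in the same pair of libraries. In members, 12 of 20 were at least 1.5-fold higher after live allogeneic than after live isogeneic cells and 0 lower, with a median log2 ratio of 0.68. In Ace-led members 8 of 15 were higher and 1 lower (median 0.72). Of all genes, 14.9% were higher and 14.9% lower in members, and 12.5% and 16.9% in Ace-led members. The median in members fell short of 1.5-fold with each member thinned to 1000 UMIs (0.20) and with a pseudocount of 50 CPM (0.56). H2-K1, a class I heavy chain, was at 2404, 4281, 2231, 2697 and 2535 CPM in Ace-led members from saline to apoptotic isogeneic. Psmb8, a subunit of the immunoproteasome that cuts peptides for class I, was at 358, 675, 407, 503 and 380 CPM. Both were highest in the live allogeneic library.

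Some of the differences in all members lay outside the Ace-led cluster. The cell cycle list had 19 of 26 genes higher and 2 lower after live allogeneic than after live isogeneic cells, with a median of 1.11. Of all genes, 14.9% were higher and 14.9% lower in members. Top2a, which untangles DNA in dividing cells, was at 276.9 CPM in saline, 874.3 in live allogeneic, 154.4 in live isogeneic, 140.8 in apoptotic allogeneic and 0 in apoptotic isogeneic members. The members in the cluster of division genes numbered 4, 4, 3, 1 and 0 in these libraries, of 76, 29, 103, 63 and 50. In Ace-led members all 3 cell cycle genes with enough UMIs were lower, with a median of -1.20, where 16.9% of all genes were lower. Chil3, a secreted lectin of classical monocytes, was lower in members after live allogeneic cells, at 22.3 CPM against 228.2 CPM. It leads the cluster that held 1 member of the live allogeneic and 7 of the live isogeneic library. The neutrophil marker list summed to 877.4 CPM in the live isogeneic members and between 22.3 and 75.5 CPM elsewhere, and the erythroid list to 537.1 CPM against between 4.46 and 25.2 CPM. The 2 live isogeneic members of the Car1 and Car2 cluster held 13.7% of the member UMIs of that library, and the 4 live allogeneic members of the division cluster held 41.8% of theirs. The part of these cells in the results over all members was not tested.

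Among the genes lowest in Ace-led members after live allogeneic against live isogeneic cells were Ncl, a nucleolar protein (107.4 against 390.1 CPM), Hist1h1e, a linker histone (61.4 against 368.1 CPM), and Dusp1, a phosphatase that answers stress (153.4 against 439.5 CPM). For Dusp1 the saline and both apoptotic libraries were at 127.4, 244.5 and 176.2 CPM, so that the live isogeneic library stood high. The same library stood apart for Gm42418 and Lars2, and their part was not tested.

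The second comparison set apoptotic allogeneic against apoptotic isogeneic cells. In all members the type I interferon list went the other way: 0 of 25 genes were at least 1.5-fold higher and 14 lower, with a median log2 ratio of -0.65, where 12.3% of 2574 genes were higher and 11.1% lower. This was not seen in the Ace-led members, in which 2 of 11 genes were past 1.5-fold upwards and 2 downwards (median 0.07), where 10.2% of 1146 genes were higher and 9.86% lower. It lay in the members outside the cluster, with a median of -1.03, of which the apoptotic isogeneic library had 18 cells and the apoptotic allogeneic one 27. At least 2 UMIs of Ly6c2 and Ccr2 were found in 8 of those 18 and in 4 of those 27, so that the cells compared also differed in their monocyte markers. In the cDC2 gate, with 193 and 185 cells, the median was -0.02. With markers of like cells left out it was -0.00269 in members, and with at least 5 marker UMIs -0.44.

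Within the Ace-led members the apoptotic pair differed in a few genes. Apoc2, an apolipoprotein that activates lipoprotein lipase, was at 907.4 CPM in saline, 797.8 in live allogeneic, 681.3 in live isogeneic, 405.2 in apoptotic allogeneic and 772.8 in apoptotic isogeneic. The apoptotic allogeneic library was the lowest, at 0.524 of the apoptotic isogeneic level (0.358 to 0.770). Malt1, a scaffold of NF-kappaB signalling, was at 318.4, 168.8, 153.8, 300.4 and 94.9 CPM, with saline and apoptotic allogeneic members high and 3.17-fold between the apoptotic pair (1.41 to 8.34). Rac1 and Rhog, GTPases of the actin skeleton, were lower after apoptotic allogeneic cells, at 300.4 against 623.6 CPM and 160.7 against 366.1 CPM, as were Vim and Anxa2.

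The 4 comparisons with saline share that 1 control library. In members 27.7% of 3022 genes were past 1.5-fold after live allogeneic cells, 26.4% of 4904 after live isogeneic, 19.0% of 3429 after apoptotic allogeneic and 28.1% of 2623 after apoptotic isogeneic cells. In Ace-led members these shares were 24.4, 25.8, 21.1 and 20.1% of 1037, 1720, 1476 and 1100 genes. The type I interferon list had 20 of 32 genes higher and 0 lower in members after live allogeneic cells (median 0.79), where 16.0% of all genes were higher. In Ace-led members 4 of 8 were higher and 0 lower (median 0.59), where 9.93% of all genes were higher. With at least 5 marker UMIs or with markers of like cells left out, the median in members was 0.40 and 0.43. In all members its median was 0.01 after live isogeneic, 0.02 after apoptotic allogeneic and 0.60 after apoptotic isogeneic cells. In Ace-led members it was -0.07, 0.41 and 0.03, with 4 of 10 genes higher and 0 lower after apoptotic allogeneic cells (Sp100, Parp14, Ifi207 and Ifi209). Of all genes, 7.76% were higher after apoptotic allogeneic cells in members and 9.15% in Ace-led members.

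MHC class II genes were higher in the Ace-led members after both kinds of apoptotic cells and, to a smaller degree, after live allogeneic cells, but a few cells carried the difference. H2-Eb1, the beta chain of the I-E molecule (chr17:34305867-34316674, mm10, + strand), was at 71.6 CPM in saline, 383.6 in live allogeneic, 54.9 in live isogeneic, 1565.1 in apoptotic allogeneic and 610.1 in apoptotic isogeneic Ace-led members. H2-Aa, the alpha chain of I-A, was at 214.9, 398.9, 192.3, 2270.7 and 1532.0 CPM. Both apoptotic libraries stood above the other 3 for each gene, and the live allogeneic one was the next highest. Against live isogeneic cells, 5 of 7 list genes were higher and 0 lower after live allogeneic cells (median 1.07), and against saline 4 of 7 and 0 (median 0.58). Of all genes, 12.5% and 9.93% were higher in these pairs. The list had 4 of 7 genes higher and 0 lower against saline after apoptotic allogeneic cells (median 2.09), where 9.15% of all genes were higher. It had the same counts after apoptotic isogeneic cells (median 1.36), where 7.91% of all genes were higher. Over all members, most of whose MHC class II UMIs lay outside the Ace-led cluster, the medians were 0.0584 and -0.14, and in the cDC2 gate they were -0.10 and -0.10.

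Per cell, however, the median of H2-Aa, H2-Ab1 and H2-Eb1 together was 0 UMIs per 10000 in the Ace-led members of 4 libraries and 1.81 in the live isogeneic one. The highest cell reached 65.8 in saline, 106.3 in live allogeneic, 29.6 in live isogeneic, 291.6 in apoptotic allogeneic and 217.6 in apoptotic isogeneic Ace-led members. Cells above 100 per 10000 numbered 0 of 42, 1 of 16, 0 of 49, 6 of 36 and 3 of 32 in these libraries. Cells without any such UMI numbered 34, 11, 23, 23 and 22. Free RNA held H2-Aa at between 1886.3 and 2024.6 CPM in the droplets of the 4 libraries for which droplets with 10 to 99 UMIs could be read. The apoptotic allogeneic library, with the highest H2-Aa level in Ace-led members, had 0 such droplets, so that its free RNA is unknown. Of the cDC2 markers, Cd209a, Clec10a, Clec4a4, Esam and Mgl2 were at 0 in the Ace-led members, and the whole list of 12 summed to between 203.4 and 318.4 CPM, highest in saline. Whether the MHC class II-high cells are doublets was not tested.

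The Y box CTGATTGG, an element of MHC class II promoters, was searched on both strands in the same windows. It was found for 3 of 10 MHC class II list genes with a promoter entry (30%) and in 3.83% of all promoters. The 2 stretches that follow show it in capitals for the alpha and beta chain genes named above, at chr17:34287825-34287904 (-) and chr17:34305775-34305854 (+).
H2-Aa: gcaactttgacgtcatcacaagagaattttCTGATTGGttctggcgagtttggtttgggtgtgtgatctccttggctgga
H2-Eb1: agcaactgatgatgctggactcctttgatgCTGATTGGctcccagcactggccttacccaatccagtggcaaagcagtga

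Fabp4 and Apoe, chosen after their values were seen, were highest in the saline library. Fabp4 was at 676.6 CPM in saline, 276.2 in live allogeneic, 423.0 in live isogeneic, 321.4 in apoptotic allogeneic and 488.1 in apoptotic isogeneic Ace-led members. After live allogeneic cells it was at 0.408 of the saline level (0.231 to 0.685). Apoe, an apolipoprotein that carries cholesterol out of cells, was at 4736, 2777, 3769, 2956 and 3281 CPM, again with saline the highest. The median log2 ratio of the whole apoptotic cell uptake and cholesterol efflux list against saline lay between -0.23 and -0.10 in Ace-led members over the 4 pairs, below 0 but short of 1.5-fold.

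Live isogeneic cells went with higher levels of immediate early and stress genes. Of the dissociation and heat stress list, 13 of 24 genes were higher and 0 lower than in saline in members (median 0.59), and 9 of 16 higher and 1 lower in Ace-led members (median 0.62). Of all genes, 14.9% were higher and 11.5% lower in members, and 12.2% and 13.6% in Ace-led members. The median in all members lay at the edge of 1.5-fold and was between 0.44 and 0.58 under several alternatives. Cebpb, a transcription factor needed for these monocytes, was at 628.8, 813.2, 1829.5, 433.2 and 515.2 CPM in Ace-led members and stood highest by far in the live isogeneic library, 2.91-fold above saline (2.27 to 3.77). Nr4a1, the factor on which their survival depends and itself an immediate early gene, was at 398.0, 444.9, 670.3, 342.4 and 352.5 CPM, 1.68-fold above saline in that library (1.20 to 2.39). Zfp36, which destabilises cytokine messages, was at 167.2, 245.5, 500, 230.6 and 149.1 CPM. As Gm42418 and Lars2 were high in the same library, and the genes of this list answer to tissue digestion, the treatment and the handling of that 1 library cannot be told apart.

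Of the NF-kappaB list, 2 of 20 genes were higher and 16 lower than in saline after live allogeneic cells in members (median -0.75), and 0 of 9 higher and 4 lower in Ace-led members (median -0.43). Of all genes, 11.7% were lower in members and 14.5% in Ace-led members. With at least 5 marker UMIs required, the median in members was -0.34, under 1.5-fold. The members of these 2 libraries also differed in genes of mature dendritic cells. That marker list summed to 499.5 CPM in saline and 84.8 CPM in live allogeneic members, and to 63.7 and 61.4 CPM in Ace-led members. The part of such cells in the NF-kappaB medians was not tested. After apoptotic isogeneic cells 0 of 8 were higher and 4 lower in Ace-led members (Bcl2a1d, Bcl2a1b, Rel and Malt1; median -0.59), where 12.2% of all genes were lower. Ccl5, a chemokine among the genes lowest in members after live allogeneic cells against saline, was at 1033.2 CPM in saline, 89.2 in live allogeneic, 221.4 in live isogeneic, 602.8 in apoptotic allogeneic and 1510.5 in all apoptotic isogeneic members. In Ace-led members it had 1, 0, 1, 37 and 29 UMIs, held by 1, 0, 1, 3 and 2 cells, so that single cells set its level.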

How the data were processed

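The files deposited by the authors hold raw UMI counts for each gene in each barcode, with no normalization. Cell Ranger 4.0 and mm10 are named in the submitters' processing notes. The apoptotic allogeneic library held 2491 barcodes. Cells needed at least 1000 UMIs, 500 genes and at most 10% mitochondrial UMIs. Members had at least 3 UMIs of Ace, Ear2, Cd300e and Adgre4, fewer than 10 of C1qa, C1qb and C1qc, at most 1 of Siglech, 0 of Xcr1 and Clec9a, at most 2 of Cd79a, Cd79b and Ms4a1, and at most 1 of Cd3d, Cd3e and Cd3g. The members and the gene lists were chosen with earlier results of these data known. No doublet caller was run. The lists share some genes.

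All cells were clustered on 2000 variable genes, 30 principal components and 15 neighbours (Leiden resolution 1, leidenalg 0.10.2), which gave 32 clusters. This split was made after the data had been seen, and its variable genes could include genes compared within it. Gm42418, AY036118, mitochondrial and ribosomal protein genes were among those kept out of the variable genes. Summed UMIs of each library were turned into CPM. A pseudocount of 10 CPM was added for log2 ratios and none for folds, whose 95% intervals are exact conditional Poisson ones. Shares have exact Clopper-Pearson intervals. A gene was compared with at least 30 UMIs in the 2 sums and was counted as higher or lower from 1.5-fold on, by size alone. Named genes had the highest and lowest log2 ratios, 10 each for live allogeneic against live isogeneic and against saline and 5 each for the other pairs, with at least 50 UMIs and a UMI in 10% of the cells of 1 library. Not eligible were mitochondrial, ribosomal, haemoglobin, sex, antibody and T cell receptor genes, and those under 0.1 of their level in another gate. List examples had the most UMIs. Marker genes needed no minimum to be named, and only some of each marker list are named. Other genes were picked for their role after their values were seen. The scripts were tested on simulated data. Gene positions matched for 32235 of 32285 genes. Alternatives changed the marker minimum, the quality limits, thinning, scaling, pseudocount and UMI minimum. Among the genes picked for their role, 1 further gene is not reported here.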

Additional observations from a re-analysis of the deposited data

Results flagged for a closer look

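The type I interferon list differed between live and apoptotic cells in its allogeneic to isogeneic ratio over all 321 members. The median log2 ratio was 0.831 for live allogeneic against live isogeneic cells and -0.645 for apoptotic allogeneic against apoptotic isogeneic cells, past 1.5-fold in opposite directions. The difference between these ratios was not tested, since each group had 1 library. In Ace-led members the second ratio was 0.07, so that the opposite direction rested on the members outside that cluster.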

How the results depend on the processing

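No paired analysis was possible because the groups share fewer than 2 replicate numbers, with 1 library each. Of 90 values of the type I interferon list under the alternatives, 74 kept their direction and their side of 1.5-fold. So did 1259 of 1314 of the other lists and 1143 of 1200 of the named genes, while 61 of 90 gene counts stayed within 1.5 times. The UMI minimum does not enter the ratio of a single gene. The settings with 10 and with 100 UMIs thus left the named genes unchanged by construction (80 of 80 in each). Nor does the pseudocount enter the gene counts. In the Ace-led cluster 47 of 80 values of named genes were the same, 17 were weaker and 16 reversed. The shares, gene counts and list medians that did not hold follow, the medians as log2 ratios. Of the named genes only the 26 reversed values follow, and 31 that kept their direction but fell under 1.5-fold are not listed. The cause was not tested except where fewer cells or UMIs entered. The restriction to the Ace-led cluster was chosen after seeing the data. Of the 20 genes named in members for live allogeneic against live isogeneic cells, 3 reached 30 UMIs in that cluster, so that most of its reversed gene ratios rest on few UMIs. The number of members, 29 in the live allogeneic library, limits what could be compared.

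With at least 5 marker UMIs, the share of members was 0.533% (apoptotic isogeneic), 1.82% (live isogeneic) and 1.72% (saline). Genes past 1.5-fold numbered 511 (live allogeneic to saline) and 337 (apoptotic isogeneic to saline). Ratios of live allogeneic to live isogeneic were 0.51 for the type I interferon list. For apoptotic allogeneic to apoptotic isogeneic the values were -0.44 for the type I interferon list, 0.91 for Marcksl1 and 0.0277 for Irf7. The values were 0.40 for the type I interferon list and -0.34 for the NF-kappaB list in the pair live allogeneic to saline. The pair live isogeneic to saline gave 0.64 for the cell cycle list and 0.88 for Ccl5. Ratios of apoptotic allogeneic to saline were 0.60 for the MHC class II list and -0.56 for the cell cycle list. For apoptotic isogeneic to saline the values were 0.44 for the type I interferon list and 1.01 for the interferon-gamma list.

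Without members holding markers of like cells, the share of members was 0.533% (apoptotic isogeneic), 1.94% (apoptotic allogeneic), 1.44% (live isogeneic) and 1.76% (saline). Genes past 1.5-fold numbered 333 (apoptotic allogeneic to apoptotic isogeneic), 416 (apoptotic allogeneic to saline) and 304 (apoptotic isogeneic to saline). The values were 1.61 for the MHC class II list, 0.0839 for the cytokine list, 0.46 for the cell cycle list and -0.70 for the stress list in the pair live allogeneic to live isogeneic. The pair apoptotic allogeneic to apoptotic isogeneic gave -0.00269 for the type I interferon list, 0.64 for Marcksl1, 0.72 for Irf7 and 1.55 for Isg15. Ratios of live allogeneic to saline were 0.43 for the type I interferon list, 0.66 for the MHC class II list and -0.77 for the cytokine list. For live isogeneic to saline the values were -0.84 for the interferon-gamma list, -0.93 for the MHC class II list, -0.59 for the NF-kappaB list and 1.21 for the cell cycle list. The values were 0.31 for the cell cycle list and 0.31 for Stmn1 in the pair apoptotic allogeneic to saline. The pair apoptotic isogeneic to saline gave 0.0599 for the type I interferon list, -0.64 for the cytokine list, -0.45 for the cell cycle list and -0.084 for Crip1.

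With at most 5% mitochondrial UMIs, the share of members was 1.25% (apoptotic isogeneic), 3.99% (apoptotic allogeneic), 3.62% (live isogeneic) and 3.99% (saline). Ratios of apoptotic isogeneic to saline were 0.56 for the type I interferon list and 0.63 for the interferon-gamma list.

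With each cell thinned to 1000 UMIs and 2 marker UMIs, the share of members was 0.439% (apoptotic isogeneic), 1.3% (live isogeneic), 1.1% (live allogeneic) and 1.86% (saline).

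In the Ace-led cluster, the share of members was 0.502% (apoptotic isogeneic), 1.7% (apoptotic allogeneic), 1.33% (live isogeneic), 1.35% (live allogeneic) and 1.45% (saline). Genes past 1.5-fold numbered 388 (live allogeneic to live isogeneic), 230 (apoptotic allogeneic to apoptotic isogeneic), 253 (live allogeneic to saline), 443 (live isogeneic to saline), 311 (apoptotic allogeneic to saline) and 221 (apoptotic isogeneic to saline). For live allogeneic to live isogeneic the values were 1.07 for the MHC class II list, -0.46 for the cytokine list, -1.20 for the cell cycle list, -0.63 for Top2a, -0.63 for Kif11, -1.91 for H2afx and -0.0786 for Hist1h2ae. The values were 0.0671 for the type I interferon list, 0.032 for Marcksl1, 0.66 for Irf7 and 0.48 for Isg15 in the pair apoptotic allogeneic to apoptotic isogeneic. The pair live allogeneic to saline gave -0.43 for the NF-kappaB list, -0.0403 for Hist1h2ae, -2.06 for Cks1b, -0.84 for Hist1h2an, 0.12 for Ccnd2 and 2.02 for Slamf7. Ratios of live isogeneic to saline were -0.30 for Gclm. For apoptotic allogeneic to saline the values were 2.09 for the MHC class II list, 0.40 for the cell cycle list, 0.76 for Mki67 and 2.17 for Stmn1. The values were 0.0295 for the type I interferon list, 1.36 for the MHC class II list, -0.19 for the cytokine list, -0.59 for the NF-kappaB list and 1.24 for Stmn1 in the pair apoptotic isogeneic to saline.

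With 10 UMIs in the 2 sums, genes past 1.5-fold numbered 3207 (live allogeneic to live isogeneic), 2098 (apoptotic allogeneic to apoptotic isogeneic), 2498 (live allogeneic to saline), 2935 (live isogeneic to saline), 2192 (apoptotic allogeneic to saline) and 2433 (apoptotic isogeneic to saline). The pair live allogeneic to live isogeneic gave 0.72 for the interferon-gamma list and -0.55 for the cytokine list. Ratios of apoptotic allogeneic to apoptotic isogeneic were -0.58 for the interferon-gamma list. For live allogeneic to saline the values were 0.84 for the interferon-gamma list. The values were 0.82 for the interferon-gamma list in the pair apoptotic isogeneic to saline.

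With 100 UMIs in the 2 sums, genes past 1.5-fold numbered 286 (live allogeneic to live isogeneic), 73 (apoptotic allogeneic to apoptotic isogeneic), 144 (live allogeneic to saline), 262 (live isogeneic to saline), 90 (apoptotic allogeneic to saline) and 94 (apoptotic isogeneic to saline). The pair live allogeneic to live isogeneic gave -0.42 for the cytokine list. Ratios of apoptotic allogeneic to apoptotic isogeneic were -0.90 for the cytokine list. For live allogeneic to saline the values were 0.55 for the MHC class I list. The values were 0.35 for the type I interferon list and 0.54 for the cytokine list in the pair apoptotic isogeneic to saline.

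With each member thinned to 1000 UMIs, genes past 1.5-fold numbered 177 (live allogeneic to live isogeneic), 94 (apoptotic allogeneic to apoptotic isogeneic), 112 (live allogeneic to saline), 223 (live isogeneic to saline), 119 (apoptotic allogeneic to saline) and 134 (apoptotic isogeneic to saline). The pair live allogeneic to live isogeneic gave 0.20 for the MHC class I list and 0.18 for Mt1. Ratios of apoptotic allogeneic to apoptotic isogeneic were -0.14 for the type I interferon list. For live allogeneic to saline the values were -0.86 for the cytokine list. The values were 0.45 for the stress list in the pair live isogeneic to saline. The pair apoptotic isogeneic to saline gave 0.0759 for the type I interferon list and -0.06 for the cytokine list.

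With a pseudocount of 50 CPM, ratios of live allogeneic to live isogeneic were 0.56 for the MHC class I list. For apoptotic allogeneic to apoptotic isogeneic the values were -0.49 for the type I interferon list. The values were 0.57 for the MHC class I list in the pair live allogeneic to saline. The pair live isogeneic to saline gave 0.51 for the stress list. Ratios of apoptotic isogeneic to saline were 0.48 for the type I interferon list.

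By the mean over cells, for live allogeneic to live isogeneic the values were -0.17 for the cytokine list. The values were -0.49 for the type I interferon list and 0.46 for the cell cycle list in the pair apoptotic allogeneic to apoptotic isogeneic. The pair live allogeneic to saline gave 0.58 for the cell cycle list. Ratios of live isogeneic to saline were 0.44 for the stress list. For apoptotic allogeneic to saline the values were -0.56 for the cell cycle list. The values were 0.50 for the cytokine list in the pair apoptotic isogeneic to saline.

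Without cells above the 95th percentile of UMIs, the pair live allogeneic to live isogeneic gave 0.24 for Mt1. Ratios of live isogeneic to saline were 0.49 for the stress list.

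With scaling without mitochondrial, ribosomal and haemoglobin genes, Gm42418, AY036118 and Lars2, for live allogeneic to saline the values were 0.56 for the MHC class I list.

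With scaling by median of ratios, the values were 0.57 for the MHC class I list in the pair live allogeneic to saline.

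With at least 2000 UMIs, the pair live isogeneic to saline gave 0.58 for the stress list.

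Without shared barcodes, ratios of live isogeneic to saline were 0.58 for the stress list.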
